A study of Mus musculus with 18 samples.

Results

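Samd9l and 8 other interferon-stimulated or RNA-sensing genes, Isg15, Ifit1, Ifit3, Irf7, Bst2, Rsad2, Oasl2 and Ifih1, were followed through the differentiation of mouse embryonic stem cells towards primordial germ cell-like cells (PGCLCs). The 9 genes were chosen by name from the 25239 genes of the count table, and Samd9l heads the list because it was among the strongest rises in epiblast-like cells (EpiLCs) that lack the TET enzymes. That EpiLC contrast chose the list, so it is given below as a description without a test. All 9 genes had a row, and 7 of them carried enough counts to be tested, while Isg15 and Ifit3 did not.

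Interferons are secreted proteins that signal through cell surface receptors, JAK kinases and STAT transcription factors. The resulting complex of STAT proteins with IRF9 binds a short DNA element, the interferon-stimulated response element (ISRE), at many genes whose products block viruses or sense their RNA. Pluripotent cells are known for a weak interferon response, and the ability to respond grows as cells leave pluripotency. TET enzymes oxidise methylated cytosine and so help to remove DNA methylation.

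All cells derived from E14Tg2a, a mouse embryonic stem cell line. Wild-type cells were compared with TET triple knockout (TKO) cells, in which the open reading frames of Tet1, Tet2 and Tet3 had been cut out with Cas9 and paired guides. The study states that its differentiation assays used 1 clone per genotype, and the labels do not say that more than 1 clone was sequenced. Genotype and clone therefore cannot be told apart. EpiLCs, obtained from the stem cells with activin A and FGF, were the start of the time course (day 0). They were then grown as floating aggregates for 2 or 6 days, either without added cytokines or with the PGC-promoting cytokines BMP4, BMP8a, SCF, LIF and EGF. Of the 9 groups, each with 2 libraries, 2 were EpiLCs of either genotype. Untreated aggregates (no cytokines) made 4 groups, 1 for each genotype and day. TKO aggregates given cytokines are given for both days, and wild-type ones for day 6, while day 2 was not analysed here for them. The labels call the wild-type day 6 cells with cytokines aggregates, whereas the study describes them as sorted for the surface proteins SSEA1 and CD61 and all other groups as whole aggregates, so any comparison with that group also compares sorted with unsorted cells.

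The 18 libraries held between 11286050 and 41257861 counts (median 16305168). Levels are counts divided by DESeq2 size factors (normalised counts), given per library or as mean ± SD with n = 2. Where a gene was tested, edgeR's quasi-likelihood test was used with Benjamini-Hochberg adjustment over the 16582 genes tested, and a gene was called higher or lower at an adjusted p below 0.05. The deleted genes were checked first. In EpiLCs, given without a test, Tet1 had a mean of 851.8 normalised counts in TKO and 6131 in wild-type cells, Tet3 145.2 and 919.9, and Tet2 67.0 and 155.7, and the libraries of the genotypes did not overlap. Tet3 fell in TKO cells in all 3 tested genotype comparisons, with log2 fold changes of -3.52 at day 2 without cytokines, -4.23 at day 6 without and -1.73 at day 6 with cytokines. Tet2 fell in both day 6 comparisons (-1.78 and -4.04), and the first of these calls was lost without the first untreated wild-type library (-0.98, adjusted p = 0.0516). At day 2 Tet2 was not called and had 354.9 and 404.9 in TKO against 286.6 and 200.4 in wild-type libraries, without overlap. Of the 3 tested comparisons, Tet1 was called lower at day 6 with cytokines (-4.20). At day 6 without cytokines it had a mean of 867.6 normalised counts in TKO and 949.7 in wild-type cells. The counts cover whole genes, including parts outside the deleted reading frames. Cell identity markers moved with genotype: summed over 6 germ cell genes, day 6 levels without cytokines were 3120 to 3294 normalised counts in TKO and 108.3 to 112.3 in wild-type libraries, and summed over 6 neural genes they were 1693 to 2307 and 29217 to 32410. Their part in the results below was not tested. RNA from whole samples cannot tell a larger share of expressing cells from more RNA per cell.

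The region around the start of a gene is where an ISRE usually lies, so the 300 bases from 250 before to 50 after the annotated start were taken for each of the 9 genes from RefSeq (build GRCm38.p6, the same as mm10). The core searched on both strands was GAAANNGAAA, in which N is any base, and 3.44% of the 32851 promoters of that length hold it. It was found in 6 of the 9 members and in 19 of 43 other interferon-stimulated effector genes for which a promoter was at hand. The promoters of 4 genes are shown, with bases of a core match in capitals and the gene's own strand written 5′ to 3′. These are the members whose day 6 change with cytokines was called different between genotypes, in a contrast that includes the sorted wild-type cells. Samd9l (minus strand, chr6:3399522-3399821) and Oasl2 (plus strand, chr5:114896684-114896983) hold no match, and Bst2 (minus strand, chr8:71537423-71537722) and Rsad2 (minus strand, chr12:26456403-26456702) do.
Samd9l: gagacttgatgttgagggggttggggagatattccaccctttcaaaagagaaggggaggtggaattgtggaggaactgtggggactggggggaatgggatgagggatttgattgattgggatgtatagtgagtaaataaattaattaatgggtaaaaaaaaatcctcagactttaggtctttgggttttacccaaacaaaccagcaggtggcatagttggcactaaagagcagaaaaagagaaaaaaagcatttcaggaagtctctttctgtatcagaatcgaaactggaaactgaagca
Oasl2: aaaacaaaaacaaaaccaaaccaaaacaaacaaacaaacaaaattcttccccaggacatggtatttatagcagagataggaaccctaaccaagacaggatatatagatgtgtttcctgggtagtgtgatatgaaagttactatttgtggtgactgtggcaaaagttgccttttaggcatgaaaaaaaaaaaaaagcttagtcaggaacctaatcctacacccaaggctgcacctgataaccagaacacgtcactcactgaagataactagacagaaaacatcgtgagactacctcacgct
Bst2: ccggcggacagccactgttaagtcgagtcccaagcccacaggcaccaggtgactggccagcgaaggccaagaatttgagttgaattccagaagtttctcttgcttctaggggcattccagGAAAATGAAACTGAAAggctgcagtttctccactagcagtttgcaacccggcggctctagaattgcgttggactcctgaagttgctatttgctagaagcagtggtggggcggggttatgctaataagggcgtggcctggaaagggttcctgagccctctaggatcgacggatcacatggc
Rsad2: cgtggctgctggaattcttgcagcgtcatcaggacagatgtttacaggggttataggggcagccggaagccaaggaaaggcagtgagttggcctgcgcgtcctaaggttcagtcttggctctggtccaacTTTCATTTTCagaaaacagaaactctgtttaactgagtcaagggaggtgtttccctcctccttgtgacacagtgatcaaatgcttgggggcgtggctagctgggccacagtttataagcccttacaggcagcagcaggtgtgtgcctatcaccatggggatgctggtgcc

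Bst2 has 2 overlapping matches that begin at positions -130 and -124 from its start, and Rsad2 has 1 at -120. The remaining matches lay in Isg15 (3), Ifit1 (2), Ifit3 (2) and Ifih1 (1), and Irf7 had none. The Samd9l window contains 1 CpG, the dinucleotide that carries most DNA methylation, against a median of 7 over all promoters, 3 in Oasl2, 6 in Rsad2, 11 in Bst2 and 14 in Ifih1. No count in these data reports on methylation or on factor binding, and a letter match is not a binding site.

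Samd9l encodes a large cytoplasmic protein that restrains poxviruses and cell growth. In EpiLCs its level was 8.03 and 2.78 normalised counts in the wild-type libraries and 98.2 and 117.7 in the TKO libraries. The log2 fold change was 4.62, rank 53 of 16582 genes. This value chose the list and is not tested. The raw counts behind it were 5 and 5 in wild type against 99 and 107 in TKO.

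Of the 7 members that could be fitted, none of the other 6 had so large a fold difference in EpiLCs. Bst2, which encodes tetherin, a membrane protein that holds budding virus particles on the cell, had 1433 and 1492 normalised counts in wild-type and 1390 and 1525 in TKO EpiLCs. Oasl2, an oligoadenylate synthetase-like antiviral protein, had 88.4 and 123.4 in wild-type and 75.4 and 128.7 in TKO EpiLCs. In both genes the genotypes overlapped. The same held for Ifit1, whose product binds viral RNA that lacks a host cap (14.5 and 7.23 against 7.94 and 28.6). Rsad2, which encodes the antiviral enzyme viperin, had 67.5 and 28.9 in wild-type and 10.9 and 40.7 in TKO EpiLCs, again with overlap. Ifih1, which encodes the RNA sensor MDA5, was low in both, with 9.64 and 5.56 in wild-type and 20.8 and 20.9 in TKO EpiLCs, and the libraries did not overlap. Irf7, a transcription factor that amplifies interferon production, had 27.3 and 21.7 against 10.9 and 19.8, lower in TKO cells without overlap. The same order held for both members with too few counts for a fit: Isg15 had 14.5 and 13.3 in wild-type and 3.97 and 3.30 in TKO EpiLCs, and Ifit3 had 4.82 and 1.11 in wild-type EpiLCs and 0 in both TKO libraries. Both genotypes thus started the aggregate culture with Bst2 and Oasl2 RNA. Bst2 was the most abundant member per length, with 1620 normalised counts per kilobase of GENCODE exon in wild-type EpiLCs against 16.6 for Oasl2 and 0.996 for Samd9l.

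**Figure D1:**
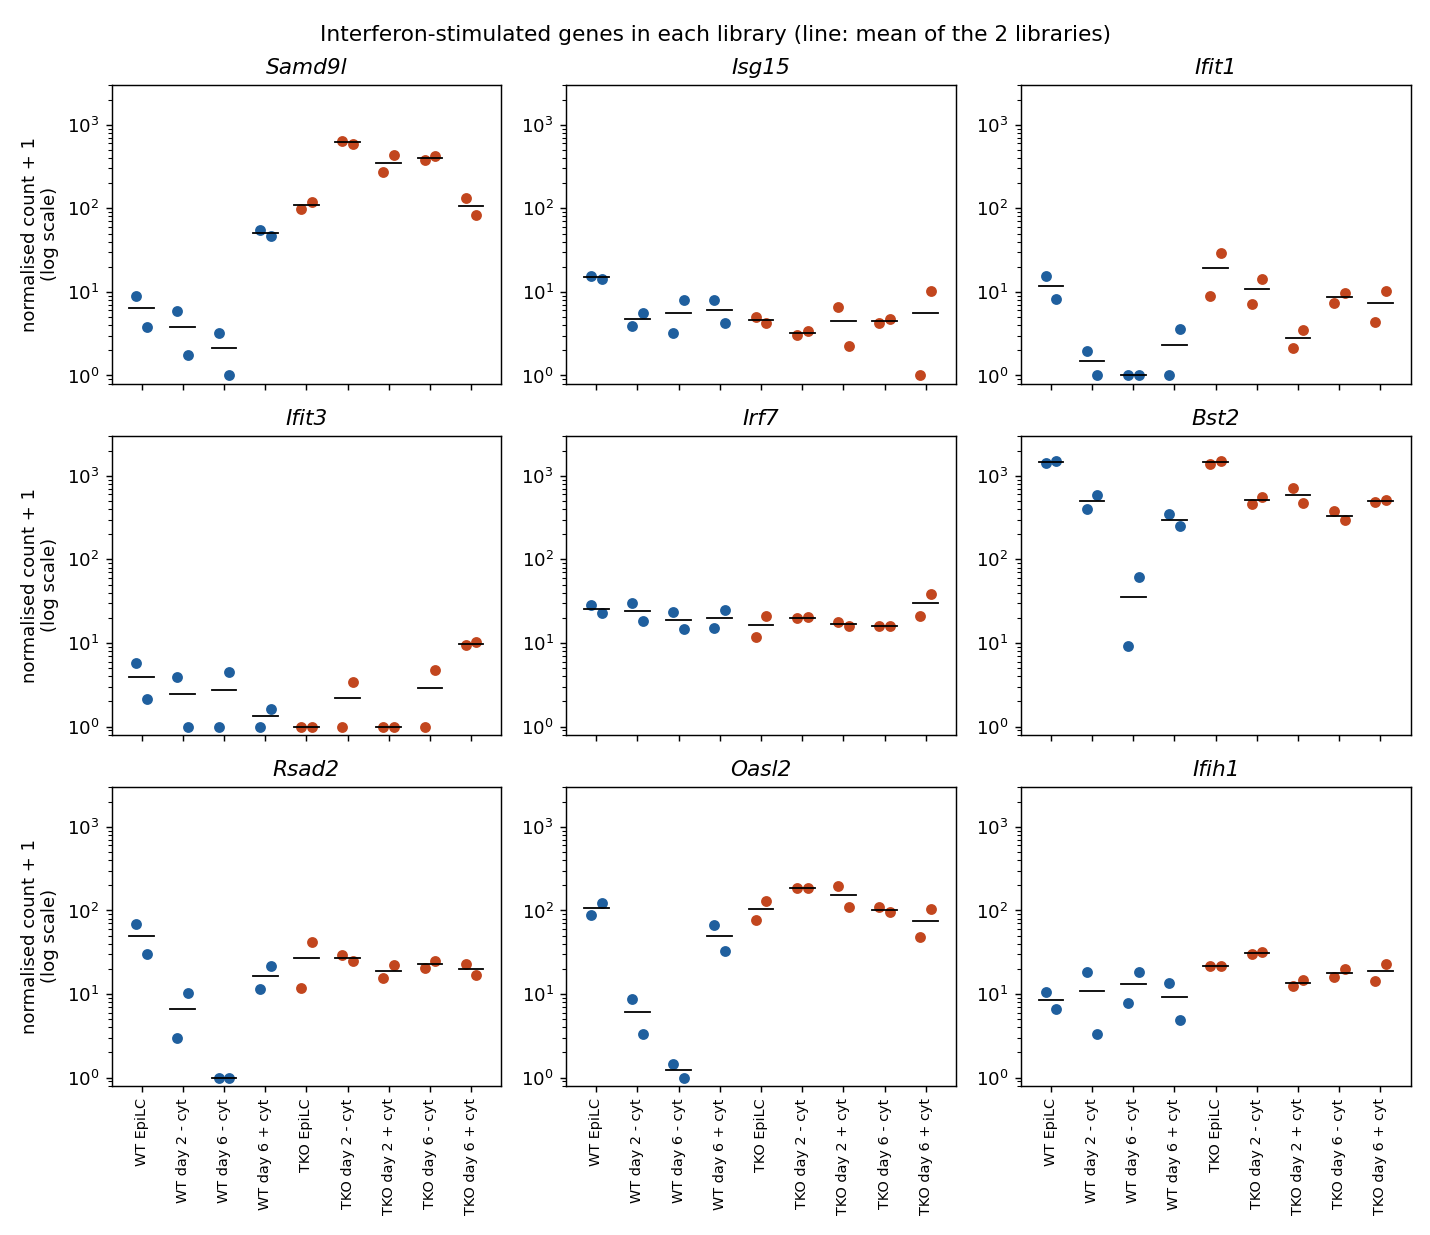
Normalised count plus 1 (log scale) of each of the 9 genes in each library of the 9 groups, wild type in blue and TKO in red, with the mean of the 2 libraries as a line (cyt, cytokines). Samd9l lies between 81.5 and 640.3 in all 10 TKO libraries and between 0 and 54.2 in the 8 wild-type libraries, and Bst2, Oasl2 and Rsad2 have their lowest means in wild-type cells at day 6 without cytokines.

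At day 2 without cytokines, where whole aggregates of both genotypes were compared, Samd9l was far higher in TKO cells. The TKO libraries had 640.3 and 589.9 normalised counts and the wild-type libraries 4.87 and 0.777. These are 617 and 491 raw counts against 5 and 1. The log2 fold change was 7.78 (SE 0.57, adjusted p = 2.57e-07, edgeR quasi-likelihood test), and the ratio of summed counts was 237.9 with a 95% interval of 108.9 to 649.5 that covers counting error only. With so few wild-type counts the size is loose: it was 9.38 without the first wild-type library of that group and 6.92 without the second.

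Oasl2 rose with it. Its TKO libraries had 184.7 and 186.2 normalised counts and its wild-type libraries 7.80 and 2.33, a log2 fold change of 5.19 (SE 0.61, adjusted p = 1.81e-05), which was 6.20 without the first and 4.52 without the second wild-type library. Rsad2 had 28.0 and 24.0 in TKO against 1.95 and 9.32 in wild-type cells (log2 fold change 2.10, SE 0.76, adjusted p = 0.0479), and the value was 1.42 without the first and 3.64 without the second wild-type library. Ifit1 had 6.23 and 13.2 against 0.975 and 0. It passed the filter on low counts through 3 libraries, all of them TKO and none wild type, so it could only enter the test as a gene that was higher in some TKO group, and its values are a description. Its fitted log2 fold change was 4.11 (SE 1.33, adjusted p = 0.0288), and against a floor of 3 counts per wild-type library it was at least 3.70-fold higher. The Rsad2 and Ifit1 calls rest on few counts. Both were lost without the second TKO library of the group (adjusted p = 0.103 and 0.143), and both also without the first wild-type library (0.242 and 0.0530). Rsad2 was further lost without the first TKO library (0.162) and Ifit1 without the second wild-type library (0.185), and the Rsad2 call also ended without any of 9 single libraries of other groups, at adjusted p from 0.0501 to 0.0621. Bst2 did not separate the genotypes, with 465.0 and 563.5 normalised counts in TKO and 405.5 and 584.2 in wild-type cells. Ifih1 was not called (29.1 and 31.2 against 17.5 and 2.33), but without the first wild-type library it was (adjusted p = 0.0144). Irf7 had 18.7 and 19.2 against 29.2 and 17.1 and was not called either. Of the 7 members tested 4 were called higher and 0 lower by edgeR, beside 18% of all genes called higher and 14.8% called lower. Without Ifit1 this is 3 of 6. By unadjusted p, 5 members were under 0.05.

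At day 6 without cytokines 5 members were higher in TKO cells. Samd9l had 381.2 and 419.0 normalised counts in TKO against 2.27 and 0 in wild-type cells (log2 fold change 7.90, SE 0.59, adjusted p = 4.50e-08), and the ratio of summed counts was 244.7 with a counting interval of 104.3 to 756.0. Without the first wild-type library, the one with all 5 of the group's counts, the fitted value was 11.7. Oasl2 had 107.7 and 94.7 in TKO against 0.453 and 0 in wild type and was at least 41.9-fold higher (adjusted p = 1.97e-06). Rsad2 had 19.4 and 24.0 against 0 counts in both wild-type libraries and was at least 8.97-fold higher (adjusted p = 0.000312). The wild-type libraries held 5 counts or fewer of each of these 3 genes.

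Bst2, which had overlapped at day 2, now separated the genotypes, with 374.7 and 294.1 normalised counts in TKO against 8.16 and 60.2 in wild type. Its log2 fold change was 3.55 (SE 0.54, adjusted p = 6.23e-05). The wild-type libraries differed, and the value was 2.49 without the first and 5.36 without the second. Ifit1 had 6.46 and 8.83 in TKO and 0 counts in wild type, at least 3.16-fold higher (adjusted p = 0.00644), a call lost without the first wild-type library (adjusted p = 0.0581). As at day 2, Ifit1 was tested only because of TKO libraries, and its call is a description. Irf7 had 15.1 and 15.1 against 22.2 and 13.9, and Ifih1 15.1 and 18.9 against 6.80 and 17.4, with overlap in both. Of the 7 members tested 5 were higher and 0 lower, or 4 of 6 without Ifit1, beside 28.5% of all genes called higher and 26.9% lower. Leukocyte markers, a check for cells that express these genes strongly, summed over 10 genes to 173.4 to 175.4 normalised counts in TKO and 31.3 to 60.7 in wild-type libraries. Between 4 and 8 of the 10 had a count in a given library. Cd68, also found in lysosomes of other cells, gave 117.4 and 101.0 of the TKO sums and 28.6 and 15.1 of the wild-type sums. Cd3e (means of 28.9 in TKO and 7.96 in wild-type cells) and Itgam (17.5 and 6.93) were also higher in TKO libraries, without overlap. Csf1r overlapped between the genotypes (8.82 and 5.21). Adgre1 had 2 counts or fewer and Tyrobp 0 counts in each of these 4 libraries. The part of such cells in the differences was not tested.

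**Figure D2:**
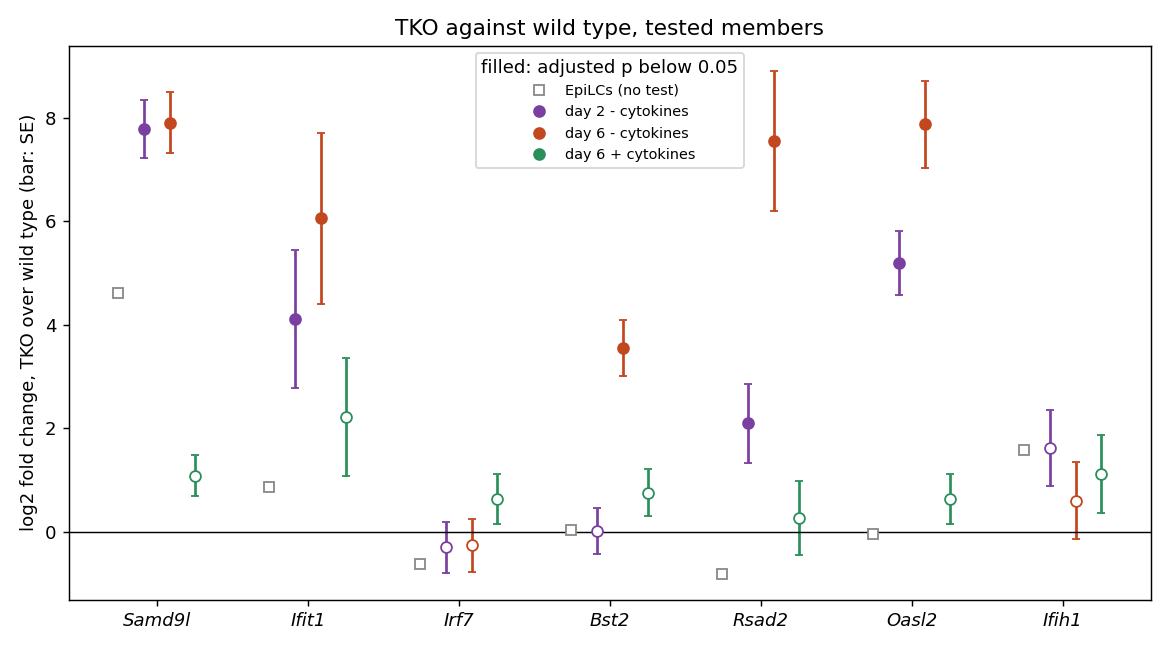
Log2 fold change of TKO over wild type for the 7 tested members, with SE as bars, in EpiLCs (squares, no test), at day 2 and day 6 without cytokines and at day 6 with cytokines. Filled points are called at an adjusted p below 0.05, open points are not. Samd9l stands at 7.78 and 7.90 without cytokines and at 1.08 with them. Fitted values of genes at or near 0 counts in wild type have no firm upper limit. Without cytokines these are Samd9l and Ifit1 at day 2 and day 6, and Rsad2 and Oasl2 at day 6.

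With cytokines at day 6 the genotypes lay closer. Samd9l had 132.7 and 81.5 normalised counts in TKO and 54.2 and 45.7 in the sorted wild-type cells, libraries that did not overlap. The log2 fold change was 1.08 (95% interval 0.24 to 1.93, edgeR), with an adjusted p = 0.0686 that misses the threshold. This call depended on the fit: the adjusted p was 0.0155 with DESeq2, 0.0348 without a filter on low counts, 0.0456 with only the 4 libraries compared, and 0.0261 and 0.0271 without the first or the second wild-type library grown without cytokines. Oasl2 had 47.0 and 102.2 against 65.4 and 31.5, and Rsad2 21.8 and 16.1 against 10.4 and 20.6, both with overlap. Bst2 had 483.8 and 516.6 against 344.2 and 247.1 without overlap, and was called only with the 4 libraries compared (adjusted p = 0.0280) or without either of the same wild-type libraries (0.0240 and 0.0246). By edgeR 0 of the 7 tested members were called, with 1 at an unadjusted p under 0.05 (Samd9l) and 1 called by DESeq2, beside 11.3% of all genes called higher and 7.53% lower. The sort applied to the wild-type cells cannot be told apart from genotype here.

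In wild-type cells at day 6, 4 members were higher with cytokines than without. Samd9l rose from 2.27 and 0 to 54.2 and 45.7 normalised counts (log2 fold change 4.92, SE 0.61, adjusted p = 5.97e-06), and by 8.67 without the first library grown without cytokines. Bst2 rose by 3.39 on the log2 scale (adjusted p = 6.92e-05), and by 2.33 without the first and 5.20 without the second of those libraries. Oasl2 was at least 20.0-fold and Rsad2 at least 6.42-fold higher (adjusted p = 7.79e-06 and 0.000470). Beside 4 of 7 members called higher and 0 lower, 29.6% of all genes were called higher and 28.6% lower. Sorting and cytokines moved together in this contrast and cannot be told apart, and it shares its libraries without cytokines with the genotype comparison at day 6.

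In TKO cells none of the 7 tested members was called higher with cytokines. At day 2, Samd9l had 270.9 and 428.2 normalised counts with and 640.3 and 589.9 without cytokines (log2 fold change -0.80, 95% interval -1.57 to -0.03, adjusted p = 0.197). It was called lower when library size alone was used for scaling (adjusted p = 0.0294) or only the 4 libraries compared were fitted (0.0146). By edgeR 0 members were called at day 2, with 1 at an unadjusted p under 0.05 and 0 called by DESeq2, beside 2.05% of all genes higher and 2.47% lower. At day 6, Samd9l fell with cytokines, from 381.2 and 419.0 to 132.7 and 81.5 (log2 fold change -1.90, SE 0.39, adjusted p = 0.0111). The call was lost without either TKO library grown without cytokines (adjusted p = 0.0634 and 0.0812) or without the second grown with them (0.0908). No other member was called at day 6, so that 0 members were higher and 1 lower, beside 2.56% of all genes higher and 3.05% lower. Bst2 there had 374.7 and 294.1 normalised counts in the untreated and 483.8 and 516.6 in the treated libraries.

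At day 6 the Samd9l change with cytokines thus had the opposite sign in wild-type and TKO cells. The wild-type change also compared sorted with unsorted cells, and the TKO call was lost when any of 3 single libraries was left out. The difference between the 2 changes was tested as an interaction. It was -6.82 on the log2 scale for Samd9l (SE 0.72, adjusted p = 3.36e-06), -7.23 for Oasl2 (adjusted p = 5.57e-05), -7.28 for Rsad2 (adjusted p = 0.00249) and -2.79 for Bst2 (adjusted p = 0.00470). The values for Oasl2 and Rsad2 rest on untreated wild-type libraries with 1 count at most and set no bound, and over single libraries left out they ran from -9.03 to -6.61 and from -7.65 to -6.67. Without the first wild-type library grown without cytokines the Samd9l value was -10.6. Bst2 was -1.73 without the first and -4.61 without the second of these libraries. Ifit1, Irf7 and Ifih1 were not called. This is 0 of 7 members higher and 4 lower, beside 21.0% of all genes higher and 22.0% lower, and the contrast includes the sorted cells.

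Time separated the genotypes as well. In wild-type aggregates without cytokines, Bst2 fell from 405.5 and 584.2 normalised counts at day 2 to 8.16 and 60.2 at day 6 (log2 fold change -4.14, SE 0.55, adjusted p = 3.22e-05). It was -3.08 without the first and -5.96 without the second day 6 library. Oasl2 was at least 2.10-fold and Rsad2 at least 2.33-fold lower (adjusted p = 0.0226 and 0.00866). The Oasl2 call was lost without the first day 2 library (0.203) or either day 6 library (0.119 and 0.0648), and the Rsad2 call without the second day 2 library (0.122) or the first day 6 library (0.0979). Samd9l was near its floor at both days. Of 7 members 0 were higher and 3 lower, beside 20.5% of all genes higher and 19.0% lower.

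In TKO aggregates without cytokines 0 of the 7 members were called between the days by edgeR, with 0 at an unadjusted p under 0.05 and 0 called by DESeq2, beside 0.422% of all genes higher and 0.0543% lower. Fitted to only those 4 libraries, Samd9l, Bst2 and Oasl2 were called lower at day 6 (log2 fold changes -0.63, -0.62 and -0.87). With cytokines, Samd9l fell from 270.9 and 428.2 at day 2 to 132.7 and 81.5 at day 6 (log2 fold change -1.71, SE 0.39, adjusted p = 0.0154), a call lost without the second library of either day (adjusted p = 0.122 and 0.166). This was 0 members higher and 1 lower, beside 4.28% of all genes higher and 1.72% lower.

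The interaction of genotype and time without cytokines was called for Bst2 (3.53, SE 0.70, adjusted p = 0.00261) and Rsad2 (5.45, SE 1.73, adjusted p = 0.0419), or 2 of 7 members higher and 0 lower, beside 9.81% of all genes higher and 8.48% lower. Bst2 was 2.47 without the first and 5.35 without the second wild-type day 6 library. The Rsad2 call was lost without any 1 of 7 of the 8 libraries of this contrast, at adjusted p from 0.0504 to 0.217, the highest without the second wild-type day 2 library, and without any 1 of 4 TKO libraries grown with cytokines (0.0512 to 0.0518). For Samd9l the value was 0.12 (95% interval -1.59 to 1.83, adjusted p = 0.946), but it was -1.48 without the first wild-type day 2 library, -0.37 without the second wild-type day 6 library and 3.87 without the first, so its sign is not fixed.

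Across the 9 groups Samd9l was highest in TKO aggregates at day 2 without cytokines, with 615.1 ± 35.7 normalised counts. TKO aggregates at day 6 without cytokines (400.1 ± 26.7) and at day 2 with cytokines (349.5 ± 111.3) followed and overlapped each other. TKO EpiLCs (107.9 ± 13.7) and TKO aggregates at day 6 with cytokines (107.1 ± 36.2) overlapped as well. Wild-type cells with cytokines at day 6 came next (49.96 ± 6.04). Wild-type EpiLCs (5.41 ± 3.71), day 2 (2.83 ± 2.90) and day 6 aggregates without cytokines (1.13 ± 1.60) were lowest, and neighbours among them overlapped.

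Oasl2 followed Samd9l most closely among the members over the 9 group means of log2(normalised count + 1), with a Pearson correlation of 0.81. Ifih1 had 0.67, Rsad2 0.60, Ifit1 0.55 and Bst2 0.35. Ifit3, Irf7 and Isg15 had -0.21, -0.40 and -0.56. These are descriptions over 9 groups, whose levels share the same size factors, and the EpiLC contrast that chose the list enters them.

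Isg15, a ubiquitin-like modifier that is among the strongest interferon-induced genes in most cells, stayed at 24 counts or fewer in every library, and had its highest normalised counts in wild-type EpiLCs (14.5 and 13.3). Ifit3, a partner of Ifit1, had 8 counts or fewer. Fragments shared with its near-identical neighbour Ifit3b were not counted, so its level is uncertain. Ifit1 overlaps another annotated gene, Ifit1bl1, and Isg15 and Ifih1 overlap predicted genes, so fragments there may have been set aside as well. Irf7 ranged from 10.9 to 37.9 normalised counts over the 18 libraries, and Ifih1 from 2.33 to 31.2.

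Among 13727 genes tested with a mean of 50 normalised counts or more in some group, the 3 whose group means correlated best with Samd9l were Cenpi (Pearson 0.979), which encodes a centromere protein, Ofd1 (0.977), a centriole protein, and Apobec2 (0.975), a member of the cytidine deaminase family. Their range was narrower than that of Samd9l. Cenpi went from 185.2 to 816.8 normalised counts and Apobec2 from 11.9 to 458.3. By Spearman's rank correlation 6 genes tied at 0.983, and of the 5 taken from them Cenpi alone was also among the 5 highest by Pearson. None of these genes belongs to the interferon lists used here.

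**Figure D3:**
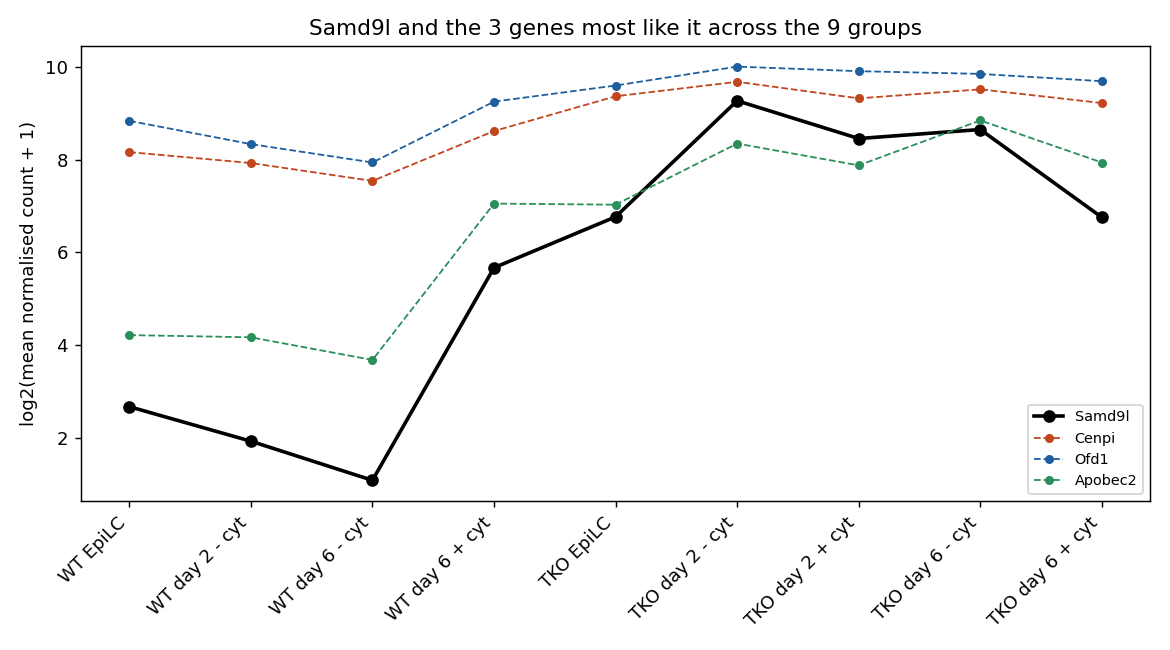
Log2 of the mean normalised count plus 1 in each of the 9 groups for Samd9l (black) and for the 3 genes with the highest Pearson correlation to it. Samd9l spans from 1.13 to 615.1 normalised counts, while Cenpi spans from 185.2 to 816.8.

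The genes beside Samd9l were compared with it. Samd9l lies on chromosome 6 from 3372257 to 3399571. On one side the next gene with a row, Gm8579, lies 55.2 kb away and had too few counts for a test. On the other side, Hepacam2 begins 57.5 kb away, Vps50 98.8 kb and Calcr 286.1 kb. Vps50, which encodes a subunit of an endosomal tethering complex, was not called in any of the 3 genotype comparisons (log2 fold changes -0.34, -0.26 and -0.48). Calcr, the calcitonin receptor, was called higher in TKO cells at day 6 without (3.08, adjusted p = 0.00109) and with cytokines (2.61, adjusted p = 0.0147), and not at day 2 (-0.20). Hepacam2 was called lower at day 6 without cytokines (-3.26, adjusted p = 0.0106). In EpiLCs, given without a test, Calcr had a mean of 177.2 normalised counts in TKO and 42.2 in wild-type cells (log2 fold change 2.10). Vps50 had 455.5 and 677.5 there (-0.54), and for both genes the genotypes did not overlap. Hepacam2 had 3.69 and 2.47, with overlap.

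The rest of the pathway was read in lists, which were drawn up with earlier results of these data known. Of the 54 other interferon-stimulated effector genes listed, 44 were tested. In TKO cells at day 2 without cytokines 30 were higher, 2 lower and 12 not called, with a median log2 fold change of 2.69 beside 0.00 over all genes. At day 6 without cytokines 37 were higher and 2 lower (median 2.47 beside 0.01), and with cytokines 10 were higher and 6 lower (median 0.23 beside 0.05). In EpiLCs, with no test, 33 of the 44 had a positive log2 fold change and the median was 0.63 beside 0.04. Of all genes tested, 18% were called higher and 14.8% lower at day 2 without cytokines. At day 6 these shares were 28.5% and 26.9% without and 11.3% and 7.53% with cytokines. Genes that entered the test only through the TKO groups had to differ, so the counts of effectors are a description.

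Xaf1, a pro-apoptotic interferon target, had 152.6 and 180.2 normalised counts in TKO against 0.975 and 1.55 in wild-type cells at day 2, at least 63.3-fold higher (adjusted p = 1.07e-05). Phf11d, a PHD finger gene, rose by 6.32 on the log2 scale at day 2 (adjusted p = 1.35e-07), and by 7.03 without the first wild-type library. With cytokines at day 6 it rose by 0.86 (adjusted p = 0.0461), a call that ended when most single libraries were left out. Oas1a, which makes the second messenger that activates RNase L, had 178.8 and 229.7 in TKO against 0.907 and 2.32 in wild-type cells at day 6 without cytokines, at least 84.5-fold higher, and with cytokines it had 351.1 and 283.6 against 41.7 and 55.3 (adjusted p = 0.000262). Not every effector moved this way. Helz2, a helicase and nuclear receptor coactivator, fell at day 2 (-3.02, adjusted p = 1.24e-05), with 49.8 and 34.8 in TKO against 358.7 and 316.2 in wild-type cells. Cmpk2, a mitochondrial nucleotide kinase that lies beside Rsad2 in the genome, fell at day 6 without cytokines (-1.79, adjusted p = 0.00153). With cytokines at day 6, Ifitm1, a membrane protein that blocks virus entry and marks early germ cells, fell by 3.10 on the log2 scale (adjusted p = 9.61e-07), with 445.1 and 456.9 in TKO against 4063 and 3656 in the sorted wild-type cells. Irgm1, an interferon-inducible GTPase, fell there too (-2.93, adjusted p = 0.0127), a call lost without the first library of either group, and -3.74 without the second TKO library.

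**Figure D4:**
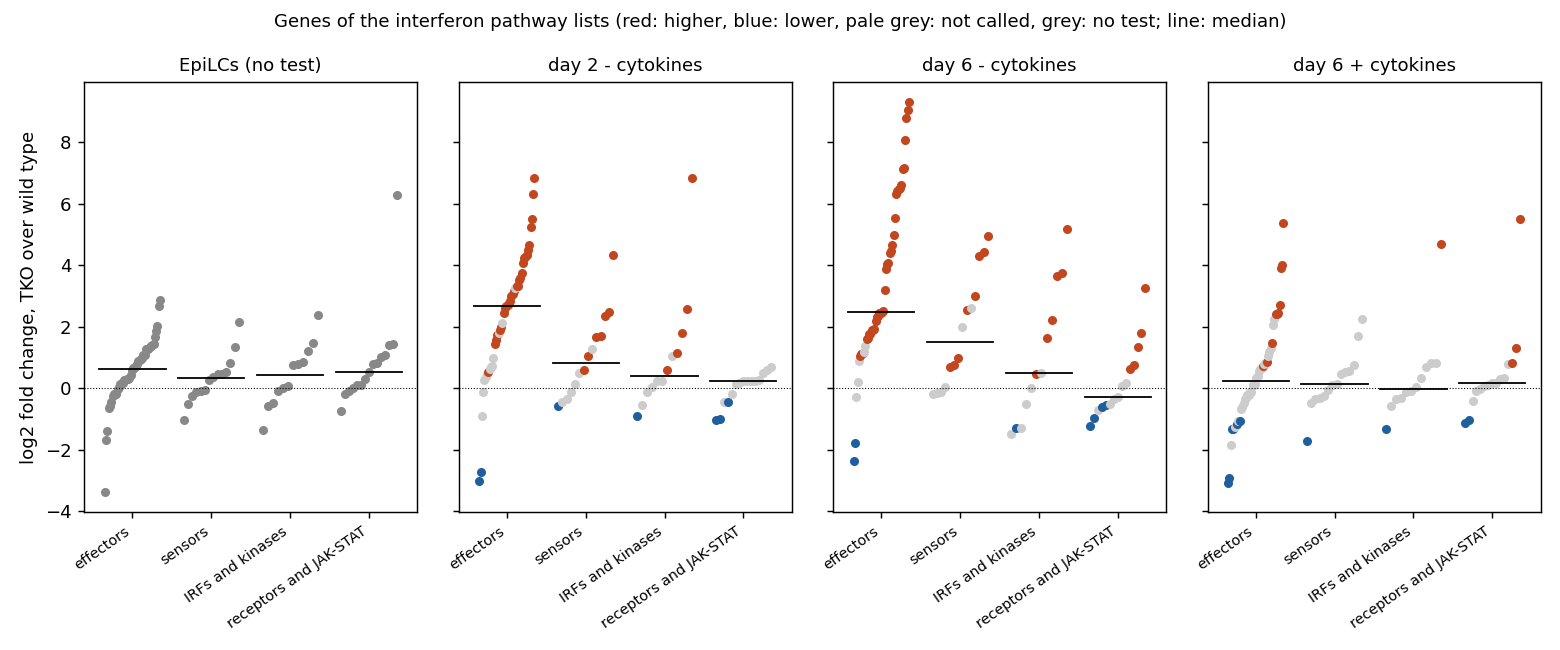
Log2 fold change of TKO over wild type for each tested gene of 4 interferon pathway lists, ordered within a list, with the list's median as a line, in EpiLCs (no test) and in the 3 tested genotype comparisons. Of 44 effectors 30 are called higher at day 2 and 37 at day 6 without cytokines, and 10 at day 6 with cytokines. Of all genes tested, 18%, 28.5% and 11.3% are called higher in the same order.

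Of the nucleic acid sensors and their adaptors, 14 of the 18 with a row were tested. At day 2 without cytokines 7 were higher and 1 lower, at day 6 without 8 were higher and 0 lower, and at day 6 with cytokines 0 were higher and 1 lower. These are set beside the shares of all genes called in the same comparisons, 18% higher and 14.8% lower at day 2, 28.5% and 26.9% at day 6 without cytokines, and 11.3% and 7.53% with them. Ddx58, which encodes the RNA sensor RIG-I, rose by 2.49 on the log2 scale at day 2 (adjusted p = 2.82e-05), from 78.0 and 53.6 in wild-type to 379.8 and 370.1 in TKO cells, and it was lower in TKO cells at day 6 with cytokines (-1.72, adjusted p = 0.00118). Aim2, a sensor of cytosolic DNA, rose by 1.69 at day 2 and by 4.44 at day 6 without cytokines. Trim25, a ubiquitin ligase that activates RIG-I, rose by 4.96 at day 6 (adjusted p = 1.93e-08), with 1277 and 1536 in TKO against 64.4 and 19.7 in wild-type cells, and by 6.16 without the first wild-type library. Samhd1, which depletes nucleotides and limits viral DNA synthesis, was lower at day 2 (-0.59, called at an adjusted p below 0.05 but not with library size alone, 0.241, nor without the second wild-type or either TKO library).

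The transcription factors differed among themselves. Of 12 interferon regulatory factors and kinases, 5 were higher and 1 lower at day 2, 6 higher and 1 lower at day 6 without cytokines, and 1 higher and 1 lower at day 6 with cytokines. The shares of all genes given for the sensors apply here too, and with cytokines the counts are near them. Irf1, which switches on many of the same promoters as the STAT complex, had 1642 and 1717 normalised counts in TKO against 335.3 and 218.3 in wild-type cells at day 2 (log2 fold change 2.57, SE 0.25, adjusted p = 3.11e-06). At day 6 without cytokines it had 766.7 and 973.0 against 27.2 and 19.7 (5.17, SE 0.30, adjusted p = 4.99e-09), and with cytokines it was lower in TKO cells (-1.34, adjusted p = 0.00158). Irf2bp1, a corepressor, fell by 0.91 on the log2 scale at day 2 and by 1.29 at day 6 without cytokines.

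Among the interferon receptors and JAK-STAT genes 15 were tested. Of these, 0 were higher and 3 lower at day 2, 5 higher and 4 lower at day 6 without cytokines, and 3 higher and 2 lower at day 6 with cytokines. Beside these stand 18% of all genes higher and 14.8% lower at day 2, 28.5% and 26.9% at day 6 without cytokines and 11.3% and 7.53% with them, so nothing is read from the counts. Irf9, the DNA-binding part of the STAT complex, had 109.8 and 116.1 in TKO and 104.3 and 99.6 in wild-type cells at day 6 without cytokines. Ifngr2, a chain of the interferon-gamma receptor, was lower in TKO cells in all 3 comparisons (-1.04, -0.97 and -1.15), and Jak2, a kinase bound to that receptor, in both without cytokines (-0.99 and -1.23). The 3 calls at day 2 were 0 when library size alone was used. Socs1, an inhibitor of the pathway, was higher at day 6 without and with cytokines (1.32 in both), Ifngr1 at day 6 without (0.74), and Tyk2 was lower with cytokines (-1.04). The calls of Socs1, Ifngr1, Ifngr2 and Jak2 were each lost without at least 1 single library, Jak2 at day 2 falling to -0.38 (adjusted p = 0.458) without the first wild-type library.

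The ligands themselves had few or no counts. Of the 19 interferon genes listed, 7 had a count in some library, 16 had 3 counts or fewer in every library, and 1, Ifnk, was tested. Ifnk had between 2 and 18 counts per library and was called higher in TKO cells at day 6 with cytokines (1.86) and in neither comparison without cytokines. Summed over the list, ligand counts were 15.1 to 21.5 normalised counts in TKO and 6.95 to 8.61 in wild-type libraries at day 6 without cytokines. With cytokines they were 23.5 to 36.7 in TKO and 4.17 to 6.43 in the sorted wild-type libraries. Ifna13, named after its values were seen, had 6 and 13 raw counts in these TKO libraries and 0 and 1 in these wild-type libraries.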

How the data were processed

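RNA from 18 mouse samples, 2 per group, was sequenced after ribosomal RNA depletion with a directional kit. According to the labels and the study's methods, the authors trimmed reads (Trim Galore 0.5.0, cutadapt 1.16), aligned them to mm10 (STAR 2.7.1a) and counted fragments on refGene exons with featureCounts (Subread 1.5.2). The deposited values are these raw counts per gene, with no normalisation. No strand option was used, and fragments with several alignments or genes were not counted. Repeated header lines (33) were dropped.

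edgeR's filterByExpr, run by group, kept 16582 of 25239 genes. One quasi-likelihood model of 9 group means was fitted to all libraries with TMM factors (edgeR 4.0.16, R 4.3.3), with Benjamini-Hochberg adjustment over all tested genes. SE was approximated from the F statistic, as the size of the log2 change over the root of F. Levels used DESeq2 1.42.0 size factors. A fold against a group with no library above 3 counts was set against 3 counts per library and is a lower bound. Intervals (95%) of count ratios are exact binomial and cover counting error only. The script was tested on simulated data.

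With 2 libraries per group an exact test of 1 gene cannot reach 0.05, so the tests rest on a spread shared across genes and groups. Replicate numbers did not pair the samples, and p-values measure only the spread between these libraries. The members and lists were chosen with earlier results of these data known. Genes named from a list are the 2 highest and 2 lowest log2 fold changes among genes called in a genotype comparison with a mean of 50 or more normalised counts. The 3 nearest genes on a side of Samd9l were also taken. Ifnk, Ifna13 and Irf9 were added after their values were seen. Some genes that these rules select are not reported here, and the 3 genes most like Samd9l are named. Alternatives were DESeq2, RLE factors, library size alone, no filter, a mean CPM of 1 or more, only the libraries compared, a replicate block, the study's limit of a log2 fold change beyond 2, and leaving out each library. Promoters and gene positions came from RefSeq (GRCm38.p6) and exon lengths from GENCODE M21.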

Additional observations from a re-analysis of the deposited data

Results flagged for a closer look

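The change with cytokines differed between genotypes for 4 of the 7 tested members, by the test of the difference itself in the edgeR quasi-likelihood fit. Of all genes tested, 21.0% were called higher and 22.0% lower in this contrast. The log2 difference, TKO minus wild type, was -6.82 for Samd9l, -7.23 for Oasl2, -7.28 for Rsad2 and -2.79 for Bst2. The genotype effect differed between day 6 and day 2 without cytokines for Bst2, by 3.53, and for Rsad2, by 5.45. Beside these, 9.81% of all genes were called higher and 8.48% lower. The Rsad2 call was lost when any of 7 single libraries of this contrast was left out. It was also lost with the replicate block and with only the libraries compared. The wild-type cells with cytokines were sorted and the other groups were not, which cannot be told apart from the cytokine effect in the first contrast.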

How the results depend on the processing

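Of 24 member calls, refitted under each alternative that kept the gene (598 values), 557 stayed called in the same direction, 41 were no longer called and 0 changed sign. The number of members called moved by over 1.5 times as follows. At day 6 with cytokines it went from 0 to 1 with DESeq2, 1 with no filter, 2 with only the libraries compared, and 0 to 2 leaving out 1 library. For cytokines in TKO cells at day 2 it went from 0 to 1 with library size alone and 1 with only the libraries compared, and at day 6 from 1 to 0 under the study's limit and 0 to 1 leaving out 1 library. For time without cytokines it went in wild-type cells from 3 to 1 with only the libraries compared and 1 to 3 leaving out 1 library, and in TKO cells from 0 to 3 with only the libraries compared. For time in TKO cells with cytokines it went from 1 to 0 under the study's limit and 0 to 1 leaving out 1 library. Leaving out 1 library gave 2 to 4 members called at day 2 without cytokines. The interaction of genotype and time had 2 members called, 1 with the replicate block (Rsad2 lost, adjusted p = 0.0528), 1 with only the libraries compared, and 1 to 2 leaving out 1 library. The block changed no other member's call. Leaving out 1 library, the Samd9l log2 fold change ran from 3.77 to 5.23 in EpiLCs, from -4.49 to 0.87 between days in wild-type cells without cytokines, and from -1.48 to 3.87 in the interaction with time. The causes were not tested. Deviations from group means correlated between same-numbered libraries by -0.16 to 0.18 over 36 pairs of groups. With library size alone the median log2 fold change of all genes lay farthest from 0 for cytokines in TKO cells at day 6, at -0.49 against 0.025 with TMM factors. No member call changed sign. Depth limits Ifit1, Rsad2, Oasl2 and Samd9l in wild-type cells without cytokines, where groups had a few counts or none.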

Other observations

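Summed over 6 endothelial marker genes, a further check of cell makeup at day 6, levels were 1369.7 to 1529.6 normalised counts in untreated TKO libraries, 202 to 233 in untreated wild-type libraries and 3208 to 3391 in the sorted wild-type cells grown with cytokines. Pecam1, which germ cells and embryonic stem cells also express, gave most of the first and the last of these sums, with a mean of 993.8, 18.9 and 2677 in the same order. Kdr (75.8 and 77.8) and Cdh5 (15.7 and 11.7) were close between the untreated TKO and wild-type means, and Emcn was at 4.49 and 1.13. Tek (66.0 and 2.29) and Egfl7 (293.9 and 105.4) had higher untreated TKO means. For Egfl7 the log2 fold change was 1.52 (adjusted p = 0.000195, edgeR quasi-likelihood test). Among the 9 members a match to the core of the other interferon element (GAS, TTCNNNGAA) was found in the promoter window of Bst2, and 8.3% of all promoters hold one.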
